A study of Mus musculus with 9 samples.

Results

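The Hippo pathway genes Wwtr1, Yap1, Tead1, Tead2, Tead3, Lats1, Lats2, Ccn1, Ccn2 and Amotl2 (10 genes) were compared between mouse embryonic fibroblasts (MEFs) with an empty vector and MEFs labelled Hnrnpk SAM. All 10 were found by name among the 15184 genes of the table of normalized counts. The level of Wwtr1, which was 20.5 times higher in the empty vector line than in SAM1 and 15.1 times higher than in SAM2, was the reason for choosing this set, so it is described with no test. The other 9 genes were chosen by name as its partners, regulators and targets, with earlier results of these data known. They were tested in a fit across all 15184 genes.

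The Hippo pathway is a kinase cascade that restrains growth in response to cell contact, shape and tension. The kinases STK3 and STK4 activate LATS1 and LATS2, which phosphorylate the co-activators YAP1 and WWTR1 (also called TAZ) and so keep them out of the nucleus. In the nucleus, YAP1 and TAZ bind TEAD transcription factors and raise the expression of genes such as Ccn1, Ccn2 and Amotl2, and fibroblasts are a classic cell type for studying this response.

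PolyA+ RNA was sequenced in 9 libraries, 3 of each of the lines labelled Empty (the control line), SAM1 and SAM2. The cells were WT MEFs transduced with lentiMPHv2 and lentiSAMv2, which carry the parts of the synergistic activation mediator (SAM), an inactive Cas9 that recruits transcriptional activators to a gene through a guide RNA, and were selected with blasticidin and hygromycin. The guides of the SAM lines were aimed at Hnrnpk, whereas the control is described as lentiSAMv2 with a nontargeting guide. The study prints the same sequence for that guide and for 1 of the Hnrnpk guides. It does not describe the selection of the control apart. Each condition rested on 1 transduced line, or 2 for SAM. The sources used here do not state which guide each line carried or whether the libraries of 1 line came from separate cultures. The p-values therefore measure only the spread between libraries. Where SAM1 and SAM2 form 1 group, that spread includes the difference between the lines, and their 6 libraries are counted as replicates. The libraries held from 41759636 to 49026626 reads on the listed genes.

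Hnrnpk itself, the targeted gene, had similar levels in all lines. Its normalized counts were 25058, 26099 and 26164 in the control line, 24102, 24045 and 23619 in those labelled SAM1 and 26608, 26859 and 26221 in those labelled SAM2. The difference of the 6 SAM libraries from the empty vector was -0.03 on the log2 scale (SE 0.05, adjusted p = 0.642), with -0.11 in SAM1 (adjusted p = 0.00252) and 0.04 in SAM2 (adjusted p = 0.159). The sign turned with the scaling, since quantile normalization gave 0.16 over both lines (adjusted p = 0.0199), 0.09 in SAM1 and 0.22 in SAM2. SAM1 and SAM2 therefore name the lines as labelled here, and other measurements of Hnrnpk in these cells were not analysed here. Of 13 fibroblast markers, all 13 were in the table, with summed normalized counts from 1062531 to 1155647 in the control line, from 900237 to 958061 in SAM1 and from 1179153 to 1217615 in SAM2. Epithelial markers summed to 388 to 429, 3733 to 3884 and 243 to 275 in the same order (3 of 7 in the table, without Epcam, Krt18, Krt5 and Krt14), and endothelial markers to 301 to 357, 4613 to 4988 and 638 to 689 (4 of 5 in the table, without Emcn). A single gene carried each of these sums in SAM1, Cldn4 with a mean of 3691 and Kdr with 4693, while Cdh1, Krt8, Pecam1, Cdh5 and Tek had means of 88.7, 23.0, 29.5, 64.7 and 29.0 there. Leukocyte markers summed to 529 to 639, 754 to 800 and 652 to 689 (2 of 6 in the table), and muscle markers to 44.4 to 83.0, 90.8 to 110.6 and 222.7 to 244.8 (1 of 5 in the table). The fibroblast sum in the control line came mostly from Fn1, Col1a2 and Col1a1, with means of 395009, 237588 and 221562. Of the 13 fibroblast markers, 4 were lower over both lines and 1 higher, beside 27.0% and 26.8% of all genes. The difference was -2.17 on the log2 scale for Dcn, -0.71 for Pdgfra and 0.74 for Pdgfrb. The part of these markers in the results on the Hippo genes was not tested, and in bulk RNA fewer cells with a transcript and less of it per cell cannot be told apart.

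Wwtr1, which encodes the co-activator TAZ (GRCm39 chromosome 3, 57363067 to 57483331, minus strand), had normalized counts of 216588, 203745 and 215415 in the control line. The counts were 10490, 10052 and 10551 in SAM1, and 14181, 13922 and 13885 in SAM2. All empty vector libraries were thus far above all SAM libraries, and each SAM2 library was above each SAM1 library. The difference on the scale of log2(normalized count + 1) was -4.35 (SE 0.03) for SAM1, -3.92 (SE 0.03) for SAM2 and -4.14 (SE 0.13) for both lines together. Ranked by normalized count, Wwtr1 was at place 5 or 6 of all listed genes in the control line, at 807 to 839 in SAM1 and at 534 to 545 in SAM2. It held 0.434% of all normalized counts in the control line (SD 0.013, n = 3), against 0.0234% in SAM1 and 0.0308% in SAM2.

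Yap1, the paralog of Wwtr1 and the other co-activator (chromosome 9, 7932000 to 8004661, minus strand), was modestly lower in the SAM lines. Its normalized counts were 14226, 13819 and 13977 in the control line, 12035, 11557 and 12210 in SAM1 and 11702, 11561 and 11780 in SAM2. Every SAM library was below every empty vector library, whereas the lines SAM1 and SAM2 overlapped. Yap1 fell by 0.25 on the log2 scale in the 6 SAM libraries (SE 0.03, adjusted p = 1.79e-04), by 0.23 in SAM1 (adjusted p = 5.65e-06) and by 0.26 in SAM2 (adjusted p = 1.95e-06). The fall of Yap1 was smaller but still called with quantile normalization (-0.11, -0.07 and -0.15 in the same order) and with equal totals (-0.12, -0.09 and -0.16). SAM2 minus SAM1 was -0.03 (95% interval -0.09 to 0.03, adjusted p = 0.362). There was thus no rise of Yap1 in the lines with less Wwtr1.

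**Figure D1:**
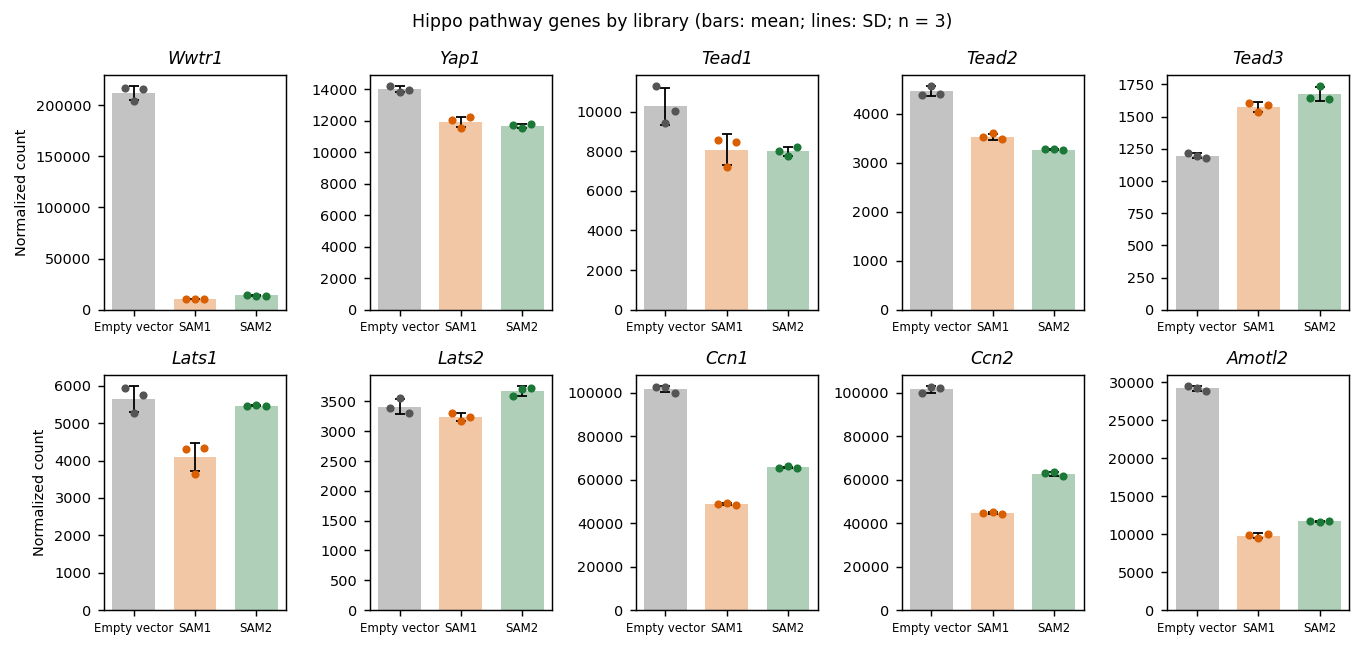
Normalized counts of the 10 Hippo pathway genes (vertical axes, each from 0) in the 9 libraries (points), with the mean (bars) and SD (lines) of the 3 libraries per line. Wwtr1, Yap1, Tead1, Tead2, Ccn1, Ccn2 and Amotl2 lie lower in all libraries labelled SAM1 and SAM2 than in the empty vector libraries, Tead3 lies higher, and the 6 SAM libraries as 1 group overlap the empty vector libraries for Lats1 and Lats2.

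To compare the levels of the co-activators with each other, normalized counts were divided by the length of the canonical transcript, since longer transcripts collect more reads. Per kb, Wwtr1 stood at 45089 ± 1511 (SD, n = 3) in the empty vector line and Yap1 at 3345 ± 49.0. In SAM1, Wwtr1 was at 2205 ± 58.0 per kb and Yap1 at 2850 ± 80.8. In SAM2, Wwtr1 was at 2978 ± 34.3 and Yap1 at 2790 ± 26.6. The ratio of Wwtr1 to Yap1 per kb was accordingly 13.5 ± 0.31 in the control line, 0.774 ± 0.0035 in SAM1 and 1.07 ± 0.016 in SAM2. Wwtr1 made up 93.1%, 43.6% and 51.6% of the transcripts of the pair in the 3 lines, and the sum of the pair per kb was 48430, 5055 and 5768.

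**Figure D2:**
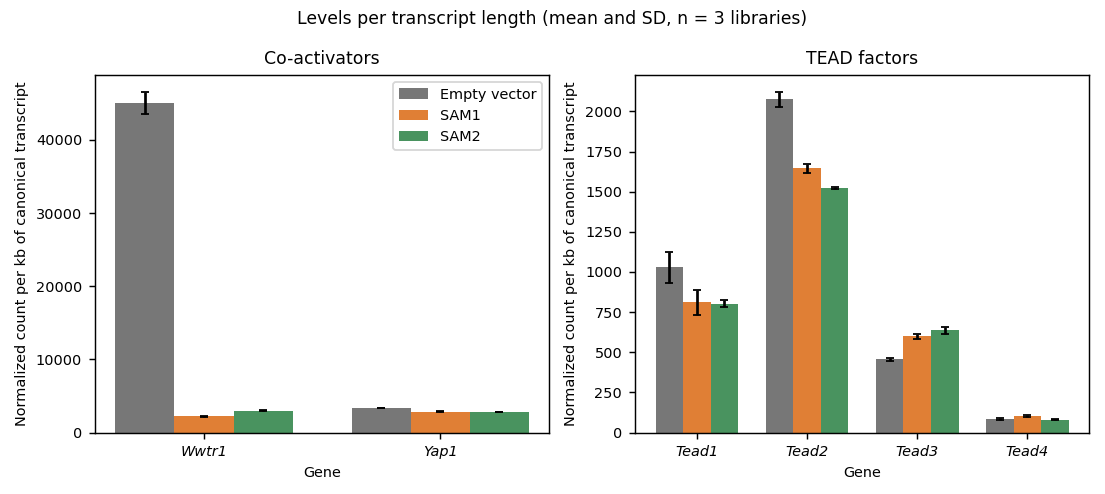
Normalized counts per kb of canonical transcript (vertical axes, from 0) for Wwtr1 and Yap1 on the left and Tead1 to Tead4 on the right, as the mean (bars) and SD (lines) of 3 libraries per line. The Wwtr1 bar of the empty vector line, 45089, is above every other bar, and the levels of Yap1 and of each TEAD gene differ far less between lines.

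Of the 9 genes other than Wwtr1, 6 were lower (Yap1, Tead1, Tead2, Ccn1, Ccn2 and Amotl2), 1 was higher (Tead3) and 2 did not pass the threshold (Lats1 and Lats2) when the 6 SAM libraries were compared with the empty vector. Over all genes, 27.0% were called lower and 26.8% higher in the same comparison. The median difference of the 9 genes was -0.35 on the log2 scale, beside 0.0087 over all genes. With all libraries scaled to equal totals, 18.7% of all genes were lower and 35.2% higher, and of the 9 genes again 6 and 1. By line, 7 of the 9 genes were lower and 1 higher in SAM1, where 36.9% and 37.3% of all genes were called, and 6 were lower and 2 higher in SAM2, where 35.3% and 35.2% of all genes were called. Both lines were compared with the same empty vector libraries, so these counts are not independent. With equal totals, 27.0% of all genes were lower and 47.6% higher in SAM1, and 27.2% and 43.2% in SAM2. The medians of the 9 genes were -0.34 in SAM1 and -0.36 in SAM2, beside 0.0093 and -0.0015 over all genes.

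**Figure D3:**
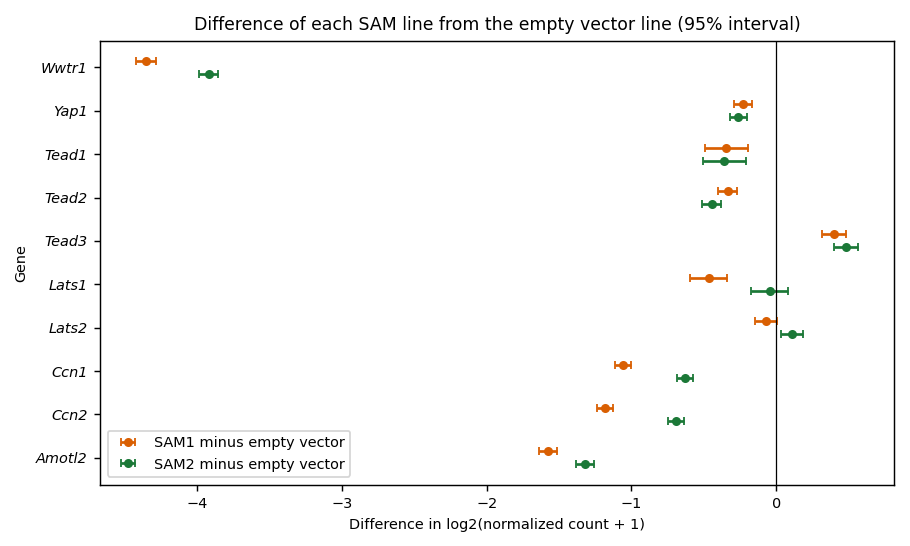
Difference of SAM1 and SAM2 from the empty vector line in log2(normalized count + 1) (horizontal axis) for the 10 Hippo pathway genes (vertical axis), with 95% intervals. Wwtr1 lies at -4.35 and -3.92, the targets Ccn1, Ccn2 and Amotl2 between -1.57 and -0.63, and the remaining genes between -0.47 and 0.48.

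The targets Ccn2, Ccn1 and Amotl2 showed the strongest differences among the tested genes. The promoters of Ccn1 and Amotl2, and that of Axl, the YAP/TAZ target with the smallest adjusted p-value, are printed here from GRCm39 because TEAD factors are known to bind the letters GGAATG, which stand in capitals on either strand (in Ccn1 they read as their reverse complement). Each runs 5′ to 3′ on the strand of its gene and ends at the base before the start of the canonical transcript of GENCODE vM39, and that of Amotl2 begins after the last base annotated as exon in another transcript of the gene.
Ccn1 (chr3:145355739-145355988, minus strand): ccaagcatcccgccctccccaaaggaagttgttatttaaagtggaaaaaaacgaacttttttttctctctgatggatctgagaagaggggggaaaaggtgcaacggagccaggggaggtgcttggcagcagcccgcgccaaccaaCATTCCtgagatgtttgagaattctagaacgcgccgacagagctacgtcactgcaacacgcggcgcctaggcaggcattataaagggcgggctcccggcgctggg
Amotl2 (chr9:102594653-102594866, plus strand): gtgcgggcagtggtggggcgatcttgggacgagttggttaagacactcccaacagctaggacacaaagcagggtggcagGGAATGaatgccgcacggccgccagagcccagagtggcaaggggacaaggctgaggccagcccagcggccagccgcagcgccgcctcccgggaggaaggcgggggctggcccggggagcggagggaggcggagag
Axl (chr7:25488330-25488579, minus strand): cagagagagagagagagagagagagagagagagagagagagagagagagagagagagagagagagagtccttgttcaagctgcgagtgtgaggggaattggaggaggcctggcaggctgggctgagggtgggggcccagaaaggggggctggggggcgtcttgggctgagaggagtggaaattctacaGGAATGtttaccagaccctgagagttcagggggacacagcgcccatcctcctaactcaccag
The match of Ccn1 began at position -105 from the start, that of Axl at -62, and those of Amotl2 at -135 and, in the exon not printed, at -235. In windows of 250 bases searched on both strands, GGAATG was found in 7 of the 10 genes (70%; not in Tead2, Lats1 and Lats2), in 6 of 22 listed YAP/TAZ targets (27.3%) and in 1542 of 13007 protein-coding genes of the table (11.9%). The 6 targets with a match included Ccn1, Ccn2 and Amotl2, so the shares of the 10 genes and of the targets rest partly on the same genes. The targets Igfbp3 and Ankrd1 had no match. The AP-1 motif TGANTCA was found in 0 of the 10 genes, in 1 of the 22 targets and in 643 of the 13007 genes (4.94%). A match is a stretch of letters and no evidence of binding in these cells.

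Ccn1 (chromosome 3, 145352720 to 145355738, minus strand) encodes CYR61, a secreted matricellular protein that engages integrins. Its normalized counts were 102415, 102372 and 99979 in the control line, 48833, 49296 and 48233 in SAM1 and 65239, 66040 and 65424 in SAM2. The 3 lines did not overlap, with SAM2 between the others. Ccn1 fell by 0.84 on the log2 scale in the 6 SAM libraries (SE 0.13, adjusted p = 3.69e-04), by 1.06 in SAM1 (SE 0.03, adjusted p = 5.08e-13) and by 0.63 in SAM2 (SE 0.03, adjusted p = 1.14e-10). Quantile normalization left a smaller fall of Ccn1, -0.46 over both lines, -0.70 in SAM1 and -0.23 in SAM2, all still called.

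Ccn2 (chromosome 10, 24471333 to 24474900, plus strand) encodes connective tissue growth factor, another matricellular protein. It had normalized counts of 99863, 102745 and 102166 in the control line, 44659, 45186 and 44424 in SAM1 and 63046, 63599 and 61705 in SAM2. The order of the lines was that seen for Ccn1, again without overlap. The fall of Ccn2 was -0.94 on the log2 scale over both lines (SE 0.14, adjusted p = 4.21e-04), -1.18 in SAM1 (SE 0.03, adjusted p = 2.45e-13) and -0.69 in SAM2 (SE 0.03, adjusted p = 6.15e-11). With quantile normalization the difference of Ccn2 was -0.59 over both lines and -0.34 in SAM2, both still called. Ccn1 and Ccn2 overlap the opposite-strand genes Gm17501 and Gm15270, whose means reached at most 740 and 178 normalized counts in any line. Whether reads were counted by strand is not given in the sources used here.

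Amotl2 (chromosome 9, 102593836 to 102610617, plus strand) encodes an angiomotin, which binds YAP1 and TAZ and holds them in the cytoplasm, and is itself a target of both. The normalized counts of Amotl2 were 29505, 29201 and 28887 in the control line, 9900, 9436 and 10080 in SAM1 and 11707, 11640 and 11743 in SAM2. The mean of the empty vector line was 2.98 times that of SAM1 and 2.50 times that of SAM2, and no libraries of different lines overlapped. Among the 9 tested genes Amotl2 had the largest change, -1.45 over both lines (SE 0.08, adjusted p = 6.16e-07), -1.57 in SAM1 (SE 0.03, adjusted p = 4.36e-14) and -1.32 in SAM2 (SE 0.03, adjusted p = 3.95e-13). This was still smaller than the difference of Wwtr1, whose level in SAM1 was 0.0489 times that of the empty vector, whereas those of Ccn1, Ccn2 and Amotl2 were 0.480, 0.441 and 0.336 times.

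The TEAD genes encode the DNA-binding partners of YAP1 and TAZ and moved in different directions. Tead1 (chromosome 7, 112278522 to 112506014, plus strand) had normalized counts of 11301, 9443 and 10032 in the control line, 8583, 7211 and 8456 in SAM1 and 8003, 7762 and 8189 in SAM2. Tead2 (chromosome 7, 44865172 to 44883071, plus strand) had 4390, 4577 and 4416 in the control line, 3522, 3603 and 3479 in SAM1 and 3282, 3282 and 3256 in SAM2. All SAM libraries were below all empty vector libraries for both genes. Tead1 fell by 0.35 over both lines (SE 0.07, adjusted p = 0.00208; -0.23 with equal totals, adjusted p = 0.0172), and Tead2 fell by 0.39 (SE 0.04, adjusted p = 6.19e-05).

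Tead3 (chromosome 17, 28550645 to 28569791, minus strand) went the opposite way. Its normalized counts were 1221, 1191 and 1181 in the control line, 1607, 1534 and 1593 in SAM1 and 1645, 1740 and 1640 in SAM2, so every SAM library was above every empty vector library. Tead3 rose by 0.44 on the log2 scale over both lines (SE 0.05, adjusted p = 3.52e-05), by 0.40 in SAM1 (adjusted p = 6.45e-07) and by 0.48 in SAM2 (adjusted p = 1.13e-07).

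Tead4, the remaining TEAD gene, was measured for comparison and had 533, 481 and 450 normalized counts in the control line, 652, 585 and 637 in SAM1 and 479, 484 and 481 in SAM2. It was higher in SAM1 (0.36, SE 0.07, adjusted p = 2.67e-04), while its value in SAM2 was -0.02 (adjusted p = 0.833). Per kb of transcript, Tead2 was the most abundant of the 4 TEAD genes in every line, with 57.0% of their sum in the empty vector line, 52.1% in SAM1 and 50.1% in SAM2. Tead1 held 28.2%, 25.6% and 26.3%, Tead3 held 12.5%, 19.0% and 20.9%, and Tead4 held 2.26%, 3.33% and 2.67%. The sum of the TEAD genes per kb was 3644 ± 77.1, 3162 ± 71.5 and 3043 ± 6.86 (SD, n = 3). The summed co-activators were thus above the summed TEAD genes in each line, by far the most in the empty vector line.

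The Vgll genes encode cofactors that compete with YAP1 and TAZ for TEAD factors. Vgll3 was lower in the SAM lines, with means of 18530 ± 628 normalized counts in the control line, 12324 ± 504 in SAM1 and 8855 ± 73.7 in SAM2 (SD, n = 3; difference over both lines -0.83, SE 0.14, adjusted p = 8.07e-04). For Vgll4 the difference was -0.24 (SE 0.08, adjusted p = 0.0301), which missed the threshold with equal totals (-0.12, adjusted p = 0.185), with a replicate block (-0.24, adjusted p = 0.0670) and without SAM1 replicate 3 (adjusted p = 0.0547) or any 1 empty vector replicate (adjusted p = 0.0993, 0.0821 and 0.0622). Vgll1 and Vgll2 were not in the table.

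Lats1 (chromosome 10, 7556736 to 7592226, plus strand) encodes the kinase that phosphorylates YAP1 and TAZ together with its paralog LATS2. Its normalized counts were 5935, 5273 and 5756 in the control line, 4304, 3654 and 4337 in SAM1 and 5457, 5499 and 5461 in SAM2. SAM1 was below the other lines in all libraries, whereas SAM2 lay inside the range of the empty vector. Lats1 fell by 0.47 in SAM1 (SE 0.06, adjusted p = 9.32e-06), while the difference in SAM2 was -0.05 (95% interval -0.17 to 0.08, adjusted p = 0.511) and that over both lines was -0.26 (SE 0.13, adjusted p = 0.134). Lats1 overlaps the opposite-strand gene Pcmt1 by 165 bases, whose means were 7353, 5376 and 5721 normalized counts in the 3 lines. Replicate 2 had the lowest value of Lats1 and of Tead1 in both the empty vector line and SAM1.

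Lats2 (chromosome 14, 57926960 to 57995845, minus strand) is both a kinase of the pathway and a known target of YAP1 and TAZ. Its counts were 3385, 3558 and 3300 in the control line, 3312, 3179 and 3240 in SAM1 and 3583, 3714 and 3733 in SAM2. SAM1 overlapped the empty vector and SAM2 lay just above it. The difference was 0.02 over both lines (SE 0.06, adjusted p = 0.836), -0.07 in SAM1 (95% interval -0.15 to 0.00, adjusted p = 0.0742) and 0.11 in SAM2 (95% interval 0.03 to 0.18, adjusted p = 0.0150). The call in SAM2 was lost without empty vector replicate 3 (0.08, adjusted p = 0.0718), SAM2 replicate 2 (0.10, adjusted p = 0.0538) or SAM2 replicate 3 (0.10, adjusted p = 0.0596), and without empty vector replicate 3 the value in SAM1 passed the threshold (-0.10, adjusted p = 0.0366). With equal totals Lats2 in SAM2 was at 0.21 (adjusted p = 1.16e-04).

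The lines SAM1 and SAM2 were also compared with each other. The difference itself uses no empty vector library, whereas its SE and adjusted p-value rest on the spread estimated over all 9 libraries. Of the 9 genes, 5 were higher in SAM2 and 1 lower, where 31.1% of all genes were called higher and 29.2% lower, and the median was 0.18 on the log2 scale beside -0.01 over all genes. The targets Ccn2 (0.49, SE 0.03, adjusted p = 4.19e-09), Ccn1 (0.43, SE 0.03, adjusted p = 1.11e-08) and Amotl2 (0.26, SE 0.03, adjusted p = 5.55e-06) were higher in SAM2. The kinases Lats1 (0.42, SE 0.06, adjusted p = 4.42e-05) and Lats2 (0.18, SE 0.04, adjusted p = 6.27e-04) were higher as well, and Tead2 was lower (-0.11, SE 0.03, adjusted p = 0.00579). Tead3 (0.09, 95% interval 0.00 to 0.17, adjusted p = 0.0705), Tead1 (-0.01, 95% interval -0.16 to 0.13, adjusted p = 0.873) and Yap1 did not pass. Wwtr1 itself was 1.35 times higher in SAM2 than in SAM1.

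A longer list of 22 widely used YAP/TAZ target genes, which includes Ccn1, Ccn2, Amotl2 and Lats2, was then examined. All 22 were in the table, and 13 were lower, 2 higher and 7 not called in the 6 SAM libraries, with a median difference of -0.47, where 27.0% of all genes were lower and 26.8% higher. Without the 4 genes already described, 10 of 18 were lower and 2 higher (median -0.40). In SAM1, 16 of the 22 were lower and 3 higher (median -0.64), and in SAM2, 14 were lower and 5 higher (median -0.55), with the same empty vector libraries in both comparisons. Of all genes, 36.9% were lower and 37.3% higher in SAM1, and 35.3% and 35.2% in SAM2. Between the lines, 17 of the 22 were higher and 2 lower in SAM2 (median 0.34), where 31.1% and 29.2% of all genes were called.

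Axl, a receptor tyrosine kinase, had 63594, 61617 and 61198 normalized counts in the control line, 33234, 31549 and 33531 in SAM1 and 33296, 33689 and 33728 in SAM2. The SAM lines were close to each other and well below the empty vector (-0.91, SE 0.04, adjusted p = 1.35e-07). Ankrd1, a nuclear and sarcomeric ankyrin repeat protein, had 55147, 56875 and 55925 in the control line, 15490, 16194 and 15646 in SAM1 and 20094, 19890 and 19746 in SAM2 (-1.66, SE 0.10, adjusted p = 1.18e-06). Dock5, a guanine nucleotide exchange factor for Rac, rose by 0.89 (SE 0.08, adjusted p = 1.36e-05), with 3521, 2776 and 3145 normalized counts in the control line and at least 5384 in every SAM library. Asap1, an Arf GTPase-activating protein, rose by 0.17 (SE 0.06, adjusted p = 0.0291), a call that was lost when any of 5 libraries was left out, namely empty vector replicates 2 and 3 and the 3 SAM2 replicates, while quantile normalization gave 0.30 and equal totals 0.29 for Asap1. Igfbp3, a secreted binding protein of insulin-like growth factors that was named after its values were seen, went furthest down, from 2491 ± 37.3 in the empty vector line to 130 ± 3.63 in SAM1 and 259 ± 3.70 in SAM2 (SD, n = 3).

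**Figure D4:**
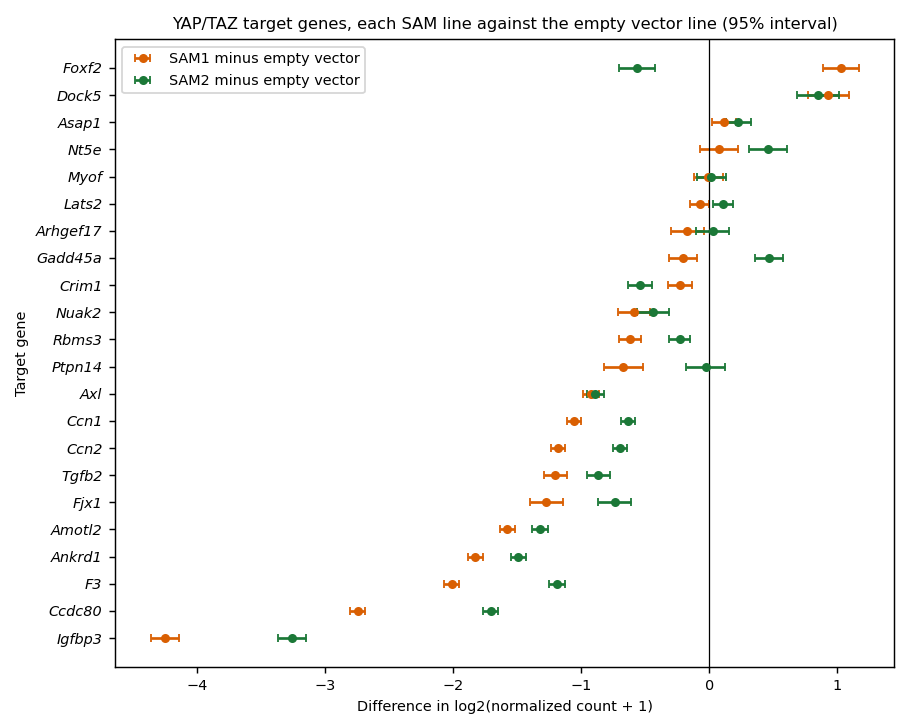
Difference of SAM1 and SAM2 from the empty vector line in log2(normalized count + 1) (horizontal axis, with 95% intervals) for the 22 YAP/TAZ target genes (vertical axis), ordered by their value in SAM1. In each line most targets lie left of 0, Igfbp3 furthest, while Dock5 lies right of 0 and Foxf2 lies on opposite sides in the 2 lines.

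Of the 70 regulators and cofactors listed besides the 10 genes, 66 were in the table, among them Tead4, Vgll3 and Vgll4 described above. Over both lines 17 were higher, 22 lower and 27 not called, with a median of -0.07, beside 26.8% higher and 27.0% lower of all genes. With equal totals 22 were higher and 18 lower, where 35.2% and 18.7% of all genes were called. The kinase cassette, which holds the STK3/4 and LATS kinases, their scaffolds and the MAP4K and TAOK kinases, had 6 genes higher, 5 lower and 12 not called of 23, counting Lats1 and Lats2, beside the same shares of all genes. Stk3, which encodes MST2, fell by 1.51 on the log2 scale (SE 0.11, adjusted p = 3.15e-06). Its normalized counts were 10631, 10475 and 10604 in the control line, 3224, 3265 and 3340 in SAM1 and 4270, 4227 and 4139 in SAM2. Stk3 lies on chromosome 15 (34874700 to 35179067), as do Otulin and Trio, which are described below. The genes around Stk3 were not examined. Frmd6, a FERM-domain protein that feeds into the cascade, fell by 0.83 (adjusted p = 1.28e-07), and the kinase gene Map4k4 fell by 0.59 (adjusted p = 1.14e-04). Higher were the related kinase genes Map4k5 (0.46, adjusted p = 8.67e-05) and Map4k1 (0.77, adjusted p = 0.00168), the latter from a mean of 62.3 normalized counts in the control line, and Stk38 (0.23, adjusted p = 2.09e-04; 0.35 with equal totals), which encodes a kinase close to the LATS kinases.

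STRIPAK, a phosphatase complex that opposes the kinase STK3, had 4 genes higher, 5 lower and 5 not called of 14 in the table, beside 26.8% and 27.0% of all genes. Stk24 (0.53, adjusted p = 6.42e-06), Slmap (0.41, adjusted p = 1.16e-04) and Strn (0.47, adjusted p = 3.39e-04) were higher, and Mob4 (-0.61, adjusted p = 6.65e-06), Pdcd10 (-0.37, adjusted p = 1.23e-04; -0.24 with equal totals) and Sike1 (-0.77, adjusted p = 1.31e-04) were lower. Of 29 genes in the table for cytoplasmic anchors, polarity proteins and protein turnover, 7 were higher and 11 lower, beside the same shares of all genes. Besides Amotl2, its relative Amot (-0.83, adjusted p = 6.02e-06) and Ywhah (-0.73, adjusted p = 9.91e-07), which encodes a 14-3-3 protein that retains phosphorylated YAP1 and TAZ, were lower. Fat4, an atypical cadherin, rose by 1.84 (adjusted p = 1.84e-04). Its normalized counts were 263, 211 and 268 in the control line, 1227, 1055 and 1251 in SAM1 and 662, 664 and 675 in SAM2. The polarity genes Dlg5 (0.85, adjusted p = 1.08e-05) and Scrib (0.52, adjusted p = 2.79e-05) were higher too. Dlg5 lies on chromosome 14 as well.

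The genes next to Wwtr1 on chromosome 3 differed in a similar way. Of 10 listed genes whose start was within 1 Mb of that of Wwtr1, 9 were lower in the SAM libraries and 0 higher, with a median of -2.82, beside 0.08 for the 762 listed genes of the chromosome. On the near sides of Wwtr1 were Tm4sf4 (-1.43, adjusted p = 1.86e-04) and Gm26671 (-3.59, adjusted p = 5.19e-05; -2.33 with a pseudocount of 10), and the fall was largest for Commd2 (-4.73, adjusted p = 3.12e-09), Pfn2 (-4.53, adjusted p = 9.59e-09) and Rnf13 (-4.36, adjusted p = 5.83e-08). Pfn2, which encodes a profilin that binds actin, went from 69219, 75216 and 73318 normalized counts in the control line to 2725, 2729 and 2760 in SAM1 and 3695, 3584 and 3521 in SAM2. At 0.839 Mb and beyond within this window, values were nearer to 0, with Tsc22d2 at -0.51, Serp1 at -0.39 (-0.25 with quantile normalization) and Eif2a at 0.01. These genes are given for their place on the chromosome and not as members of the Hippo pathway.

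**Figure D5:**
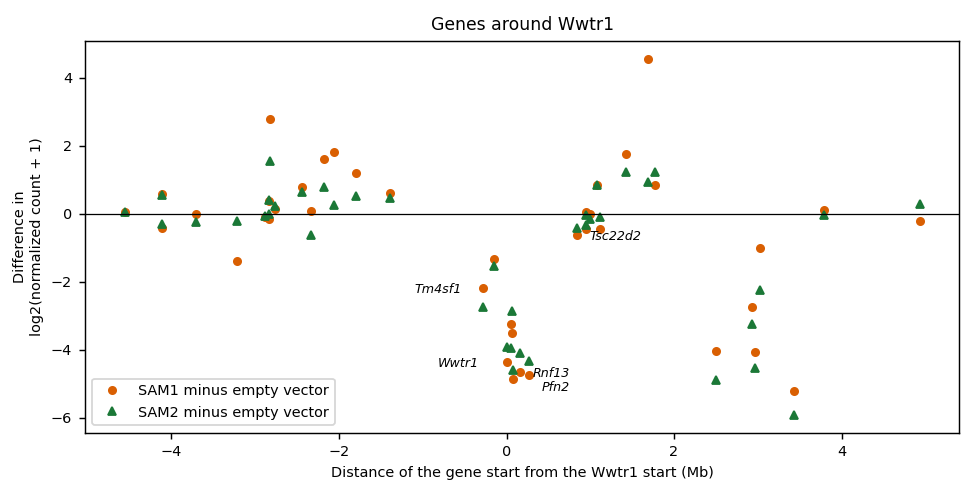
Difference of SAM1 (circles) and SAM2 (triangles) from the empty vector line in log2(normalized count + 1) (vertical axis) for the listed genes within 5 Mb of Wwtr1, against the distance of each gene's start from that of Wwtr1 in Mb (horizontal axis). Wwtr1 and its nearest neighbours, among them Rnf13 and Pfn2, lie far below 0, genes near 1 Mb on the right lie close to 0, and a second group from 2.51 to 3.43 Mb lies below 0 again.

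Around the other 9 genes the neighbours lay nearer to 0. The medians of the genes within 1 Mb were -0.19 around Ccn1, -0.16 around Ccn2, -0.26 around Amotl2, -0.28 around Yap1, -0.20 around Tead1, -0.27 around Tead2, 0.08 around Tead3, -0.07 around Lats1 and 0.48 around Lats2. The median was 0.55 for all 513 genes of chromosome 14 (Lats2) and -0.24 on chromosome 7 (Tead1 and Tead2). It was -0.14 on chromosome 9 (Yap1 and Amotl2), 0.15 on chromosome 17 (Tead3) and 0.0025 on chromosome 10 (Lats1 and Ccn2). Yap1 (-0.25) did not lie below the median of its neighbours, whereas Tead1 (-0.35) and Tead2 (-0.39) lay below theirs. Ccn1, Ccn2 and Amotl2 lay further below the empty vector than the median of their neighbours. The lowest neighbour was at -2.07 around Ccn1, -0.91 around Ccn2 and -1.265 around Amotl2. The part of chromosomal position in the differences of these genes was not tested. The nearest listed genes were Znhit6 and Gm17501 beside Ccn1, Moxd1 and Gm15270 beside Ccn2, Anapc13 and Ryk beside Amotl2, Birc3 and Gm45494 beside Yap1, Parva and 2310014F06Rik beside Tead1, Kash5 and Trpm4 beside Tead2, Rpl10a and Fkbp5 beside Tead3, Nup43 and Katna1 beside Lats1, and Xpo4 and Sap18 beside Lats2.

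The genes whose pattern over the 9 libraries was most like that of Wwtr1, by Pearson's r of log2(normalized count + 1) among genes with an SD of at least 1 on that scale over the 9 libraries, were Rnf13 (r = 0.9997), Pfn2 (r = 0.9996), Otulin (r = 0.9995), Trio (r = 0.9989) and Irf7 (r = 0.9988). The libraries form 3 groups, so these values describe mainly the order and spacing of the 3 lines. Rnf13 and Pfn2 are neighbours of Wwtr1, and Otulin and Trio lie on chromosome 15 at 27542721 to 27631297 and 27730737 to 28026029. Trio had 230877 ± 26440 normalized counts in the control line, 14722 ± 1379 in SAM1 and 18582 ± 426 in SAM2 (SD, n = 3).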

How the data were processed

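PolyA+ RNA of 9 MEF libraries was measured by RNA-Seq, and the labels gave the group and replicate number of each. The authors checked reads with FastQC 0.11.0, aligned them to GRCm39 with TopHat2 and Bowtie2 (3 mismatches, 20 multihits), counted them with HTSeq on Gencode, and deposited a signal, namely counts divided by DESeq2 size factors. Genes above 10 in at least 30% of libraries were kept. Genes removed by this filter were not analysed here.

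Values were fitted as log2(value + 1) with limma 3.58.1 (trend, two-sided, Benjamini-Hochberg over 15184 genes, threshold 0.05) in R 4.3.3, with the SAM libraries as 1 group as in the study, and in a second fit with 3 groups. A fold change on this scale understates the change of low genes. In all 9 libraries, 100% of values were whole multiples of 1 read (tolerance 0.01 reads), which gave the depths. On these reads edgeR 4.0.16 and DESeq2 1.42.0 were run as alternatives. Other alternatives were the pseudocount, a stricter filter, quantile normalization, a replicate block, each library left out in turn and, chosen after seeing the data, scaling to equal totals. The comparison over both lines was checked on simulated data with 200 changed genes and equal effects in SAM1 and SAM2. That is far fewer changed genes than were called here, so the check does not cover the setting of these data.

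The genes and lists were chosen with earlier results of these data known. Named genes are the 10 genes, Hnrnpk, the 3 with the smallest adjusted p per list and direction, the TEAD genes and cofactors, the nearest neighbours and the 5 most like Wwtr1 (among genes with an SD of at least 1). Commd2, Tsc22d2, Serp1, Eif2a, Foxf2, Igfbp3 and the single cell type markers were named after their values were seen. Coordinates and transcript lengths are from GRCm39 with GENCODE vM39, where 14791 gene names were found once. The promoter sequence of Ccn2 is not reported here. That release is later than the one the authors counted on.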

Additional observations from a re-analysis of the deposited data

Results flagged for a closer look

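For 6 of the 9 genes tested, the effect against the empty vector differed between the lines, by the test of SAM2 minus SAM1 itself. Such calls were common among all genes, of which 31.1% were called higher and 29.2% lower in SAM2 than in SAM1. The count of 6 was not tested against these shares and does not set the Hippo genes apart. On the log2 scale, SAM2 was above SAM1 by 0.43 for Ccn1, 0.49 for Ccn2 and 0.26 for Amotl2, the targets, which were below the empty vector in both lines. Lats1 was higher in SAM2 by 0.42 and Lats2 by 0.18, and Tead2 was lower by -0.11. In each of these genes the libraries of SAM1 and SAM2 did not overlap, which also held for Tead3, whose difference was not called. How many of all genes shared this was not counted. The markers Cldn4 (means of 3691 in SAM1 and 211 in SAM2) and Kdr (4693 and 536) were lower in SAM2, Tek was higher (29.0 and 67.1), and Cdh5 did not pass (64.7 and 51.2, adjusted p = 0.0995). The part of these genes in the differences of the Hippo genes was not tested.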

How the results depend on the processing

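No called difference of the 10 genes changed direction under any alternative, though quantile normalization or equal totals made the falls of Yap1, Ccn1, Ccn2 and Tead1 smaller, as given above. For the 9 tested genes, 606 values kept their side of the threshold, 3 lost it and 3 gained it. The exceptions were Lats2 against the empty vector, as given above, and Yap1 between the lines, which was called lower in SAM2 under quantile normalization (-0.08, adjusted p = 0.0132) and under scaling to equal totals (-0.07, adjusted p = 0.0354), so that 2 genes instead of 1 were lower in SAM2 than in SAM1. Leaving out single libraries gave 1 to 2 of the 9 genes higher in SAM2 than in the empty vector, and 1 to 2 YAP/TAZ targets higher over both lines. Wwtr1 was at -3.79 over both lines under quantile normalization and at -4.01 with equal totals. Scaling to equal totals raised the median of all genes from 0.01 to 0.13 over both lines, so that values under it are read relative to this shift. Same-numbered libraries deviated together only weakly (mean r 0.05 over 9 pairs), so the numbers were not taken as pairing, and with a replicate block 6 genes were lower and 1 higher over both lines, as without it. edgeR and DESeq2 changed no call of the 9 genes. Of the other named genes, Hnrnpk turned in sign over both lines under quantile normalization (0.16) and in SAM1 under quantile normalization (0.094) and equal totals (0.035), Eif2a was called with equal totals (0.14), and Vgll4 and Asap1 lost their calls as given above. Equal totals and quantile normalization both gave 22 regulators higher, with 18 and 20 lower. The lowest normalized count of the set was 1181 (Tead3), and each condition rests on 1 or 2 lines.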
